A study of Homo sapiens with 12 samples.

Results

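The genes described here are those of TRAIL, the death receptors and the caspases they are known to act with: TNFSF10, TNFRSF10A, TNFRSF10B, FAS, CASP8, CASP10, CASP1, CASP4 and XAF1. Every probe that the platform annotation assigns to 1 of these 9 genes was taken, which gave 20 of the 47323 probes on the array, for 9 of the 20046 genes it names. The rule takes probes by gene symbol and uses no measured value, but the genes were picked with earlier results of these data known. Expression was measured on single-colour Illumina bead arrays in cells labelled A549, an established human line from a non-small cell lung cancer, with RNA taken 24 h after plasmid transfection. The ICD group received a plasmid for the intracellular domain of SEMA5A, a transmembrane semaphorin, the ECD group a plasmid for its extracellular domain, and the Full group a plasmid for the full-length protein. The Empty group received the control plasmid, so all 4 groups were transfected, with jetPRIME reagent, and no group went without plasmid. Each group had 3 arrays. The labels call them replicates without telling whether each was a transfection of its own, and the p-values thus cover only the variation among these arrays, which may be technical. The labels do not give the share of cells that took up plasmid.

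TRAIL, encoded by TNFSF10, is a death ligand. It binds the receptors DR4 (TNFRSF10A) and DR5 (TNFRSF10B), which, like FAS, recruit the adaptor FADD and the initiator caspases CASP8 and CASP10, and these cleave executioner caspases and start apoptosis. CASP1 and CASP4 belong to the inflammatory caspases: CASP1 is activated in inflammasomes and matures IL-1β, and CASP4 binds intracellular bacterial lipopolysaccharide, cleaves gasdermin D and so drives pyroptosis. XAF1 is known as an antagonist of the caspase inhibitor XIAP. TNFSF10, XAF1, CASP1 and CASP4 are known as genes that interferons can induce, and TNFRSF10B and FAS as genes that p53 can induce.

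A detection p under 0.05 was counted as above background, as it was for 18659 to 20366 probes per array, and the dimmest such probe read 104.7 to 111.8 intensity units depending on the array. The ECD arrays were the brightest, with a 95th percentile of intensity of 944.89 to 990.06, against 798.5 to 937.58 on the other 9 arrays. SEMA5A had 2 probes, above background in 0 of 24 values, so the arrays gave no check of the plasmids. The label was set against 9 markers of epithelial cells and of the A549 line. The keratin genes KRT8 and KRT18 were above background on all 12 arrays, at 417.8 to 634.5 and up to 170.1 units. By their best probes, ALDH1A1 was above it on 11 arrays (up to 121 units), KRT7 on 3 and EPCAM on 2. KRT19, CDH1, AKR1B10 and AKR1C1 were above background on none, and the last pair are known for high levels in A549. The data therefore go against the label for several of its defining genes, and the cells are called here the cells labelled A549. The summed intensity of the 9 markers ranged from 1246.4 to 1478.3 on ICD arrays, 1410.7 to 1488.9 on ECD arrays and 1316.6 to 1531.7 on Full arrays, against 1279.6 to 1335.1 on Empty arrays. None of the 7 leukocyte markers and none of the 8 fibroblast and endothelial markers was above background on all 12 arrays. CD14 was above it on 5 arrays, COL1A1 on 4 and KDR on 6, at up to 113.3, 113.5 and 111.9 units.

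The array could read only some of these genes. Of the 9 genes, 4 had a probe above background on all 3 arrays of at least 1 group and were tested: TNFRSF10A, TNFRSF10B, CASP4 and XAF1. They entered with 6 probes, and the other 14 probes did not enter. The other 5 genes, TNFSF10, FAS, CASP8, CASP10 and CASP1, gave 132 values from 11 probes, and 3 of these values, all for FAS, were above background. No change can be read for these 5 genes in either direction, since a level below background has only an upper bound.

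**Figure D1:**
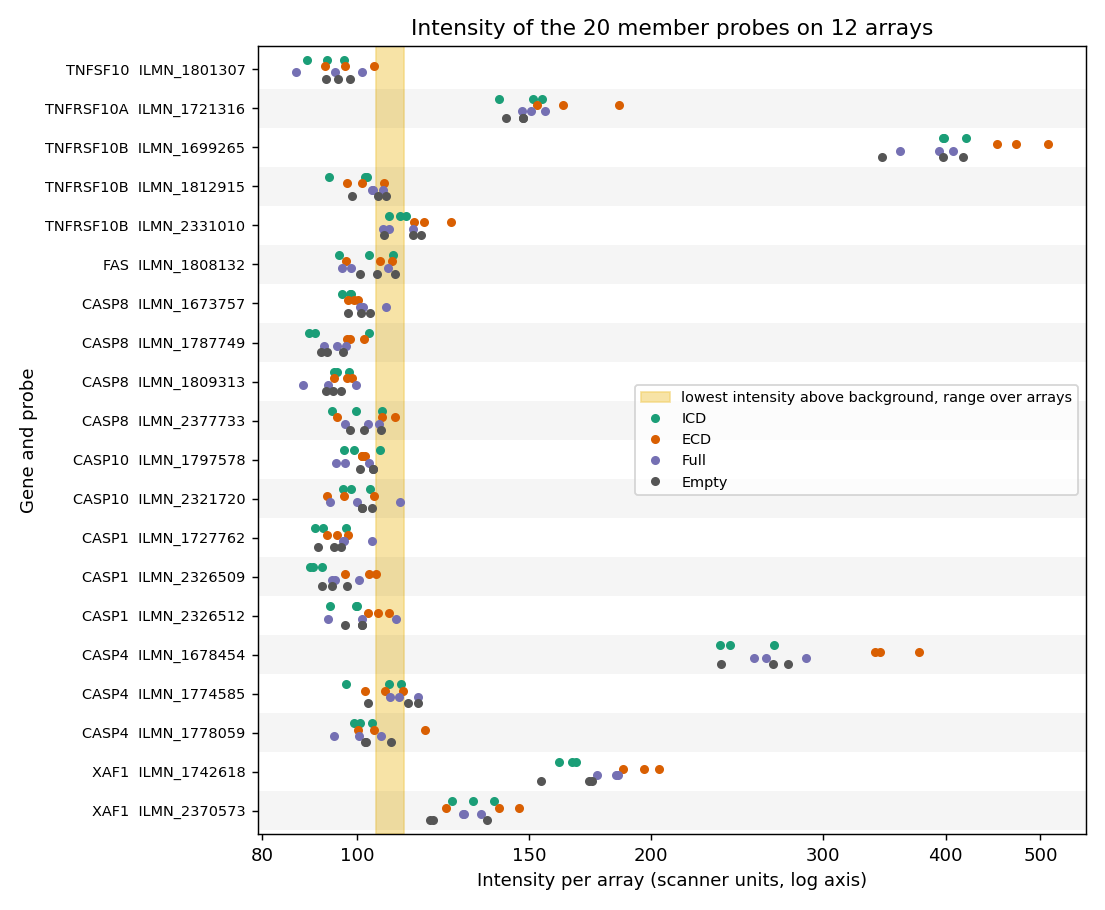
Intensity of each of the 20 probes (rows, by gene and probe) on every array, on a log axis in scanner units, with points coloured by group (ICD, ECD, Full, Empty) and 3 points per group. The shaded band runs from 104.7 to 111.8, the range over arrays of the dimmest intensity called above background; the probe ILMN_1678454 of CASP4, ILMN_1699265 of TNFRSF10B, the only probe of TNFRSF10A and both probes of XAF1 lie clear of it, and most others lie in it or to its left.

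TNFSF10, the ligand, was below background on all 12 arrays. Its probe read 89, 97 and 93.3 units with ICD, 104, 97.2 and 92.8 with ECD and 95, 101.3 and 86.6 with Full, against 95.7, 98.4 and 93 with Empty. The groups overlapped, and the lowest detection p was 0.19481.

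Among the receptors without a tested probe, FAS, the receptor of FAS ligand, read 95.8 to 109.4 units. It was above background on 1 ICD array, 0 ECD arrays and 0 Full arrays, against 2 Empty arrays. The 4 probes of CASP8, the initiator caspase of the TRAIL and FAS receptors, read 88.1 to 109.3 units and were above background in 0 of 48 values. CASP10, its close paralogue, read 93.3 to 110.7 units from 2 probes, with 0 of 24 values above background. CASP1, the inflammasome caspase, read 89.6 to 109.6 units from 3 probes, with 0 of 36 values above background. Over all 11 probes the median intensity was 96.9 with ICD, 99.3 with ECD and 97.5 with Full, against 98.4 with Empty. Without the detection filter, the brightest probe of each of these 5 genes was tested among 37256 features, and limma called 0 of their 30 values in the 6 comparisons. The lowest unadjusted p was 0.083, the lowest adjusted p 0.57, and the log2 differences lay between -0.21 and 0.13.

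For the 4 tested genes, intensities were corrected for background and normalized, and values below are log2 intensities. A log2 level compares groups for 1 probe and not probes with each other. Differences came from 1 limma fit over all 12 arrays and 15338 features, with Benjamini-Hochberg adjustment and a threshold of 0.05. In RNA from whole cultures, a change in all cells and a change in a share of them cannot be told apart.

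TNFRSF10A, the DR4 receptor, was above background on all 12 arrays and passed the test in none of the 6 comparisons. Its level was 5.92, 6.22 and 6.06 with ICD, 6.17, 6.45 and 6.02 with ECD and 6.18, 6.05 and 6.25 with Full, against 6.04, 6.00 and 6.08 with Empty. The arrays of all groups overlapped. The difference from Empty was 0.03 with ICD (95% interval -0.22 to 0.27, limma adjusted p = 0.92). It was 0.17 with ECD (-0.07 to 0.42, limma adjusted p = 0.35) and 0.12 with Full (-0.13 to 0.37, limma adjusted p = 0.68). The interval with ECD leaves room for a rise of up to 1.34-fold.

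TNFRSF10B, the DR5 receptor and a known target of both p53 and the stress factor CHOP, had 3 probes. The brightest, ILMN_1699265, stood for the gene. Its level was 8.38, 8.33 and 8.38 with ICD, 8.59, 8.31 and 8.48 with ECD and 8.45, 8.26 and 8.24 with Full, against 8.40, 8.28 and 8.24 with Empty. The groups overlapped, and 2 of the 3 ECD arrays were above every other array. The difference from Empty was 0.06 with ICD (95% interval -0.15 to 0.27), 0.16 with ECD (-0.05 to 0.36) and 0.01 with Full (-0.19 to 0.22), with limma adjusted p-values of 0.75, 0.33 and 0.96 in that order. The probe ILMN_2331010 lay near background, at 4.99, 4.86 and 4.67 with ICD, 4.99, 5.18 and 4.90 with ECD and 4.68, 4.78 and 4.69 with Full, against 5.06, 4.96 and 4.76 with Empty. It passed in no comparison either. Every Full array of that probe was below every ECD array, by 0.31 on average (limma adjusted p = 0.071 over 18728 probes), whereas the brighter probe overlapped there. The probe ILMN_1812915 was above background on 1 array, an Empty one.

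**Figure D2:**
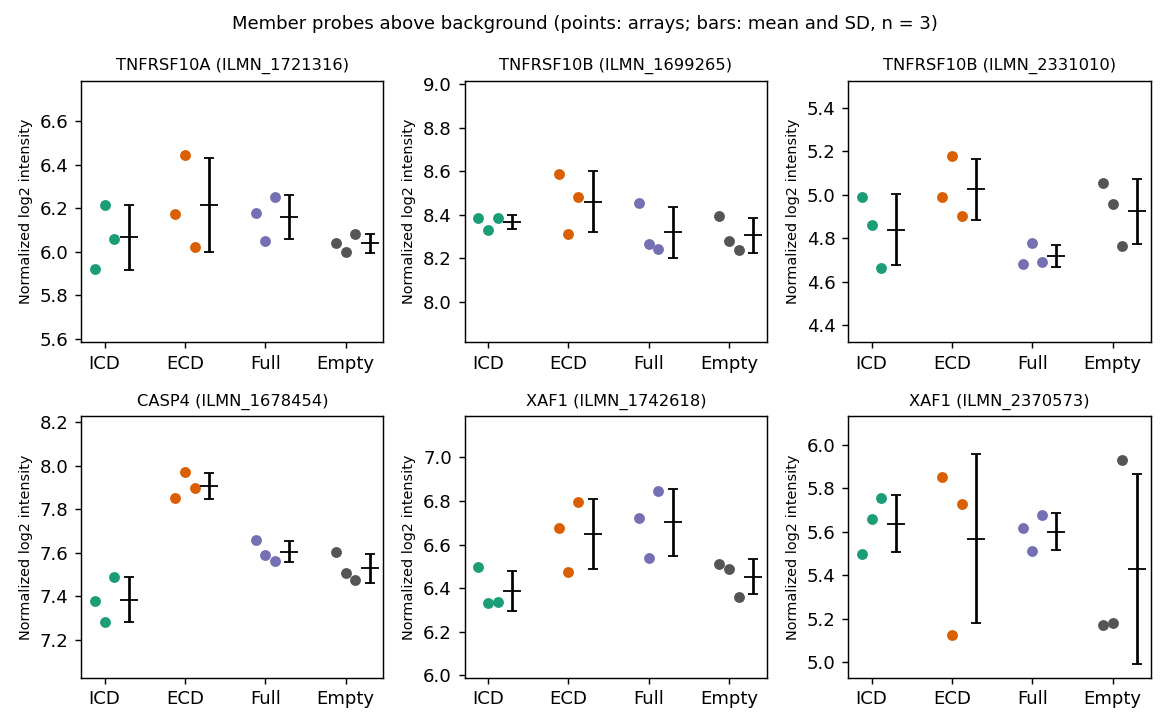
Normalized log2 intensity (vertical axes, each panel with its own range of equal span) on every array for the 6 probes that were tested, by group (ICD, ECD, Full, Empty); points are arrays and bars give the mean and SD of 3 arrays. In the CASP4 panel the ECD arrays (7.85 to 7.97) lie above the arrays of all other groups; in the other panels the ECD and Empty arrays overlap.

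CASP4 was the member that differed. With ECD it was 1.30-fold higher than with Empty, and 1.44-fold higher than with ICD. With Full it was lower than with ECD, by 1.23-fold. No change from Empty passed the test with ICD or with Full. Its probe ILMN_1678454 read 240.7, 235.3 and 267.3 intensity units with ICD, 338.4, 375.7 and 342.4 with ECD and 262, 288.2 and 254.8 with Full, against 275.9, 266.4 and 235.7 with Empty. After normalization the log2 level was 7.38, 7.28 and 7.49 with ICD, 7.85, 7.97 and 7.90 with ECD and 7.66, 7.59 and 7.57 with Full, against 7.60, 7.51 and 7.48 with Empty. All 3 ECD arrays were above all 9 others, before and after normalization. In order of mean level ECD came first, at 7.91 ± 0.06 (SD, n = 3), then Full at 7.61 ± 0.05, Empty at 7.53 ± 0.07 and ICD at 7.38 ± 0.10. Full and Empty, neighbours in this order, did not differ beyond their spread, and neither did Empty and ICD.

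Against Empty, the log2 difference of CASP4 with ECD was 0.38 ± 0.09 (SE, 95% interval 0.19 to 0.56, limma adjusted p = 0.016). With ICD it was -0.14 (-0.33 to 0.04, limma adjusted p = 0.34) and with Full 0.08 (-0.11 to 0.26, limma adjusted p = 0.74). The number of tested members called was thus 0 of 4 with ICD, 1 of 4 with ECD and 0 of 4 with Full. Of all features, 6.01% were called with ICD, 11.4% with ECD and 1.08% with Full. At an unadjusted p under 0.05 limma passed 0 members with ICD and 1, XAF1, with Full. The share of all features at that unadjusted threshold was not counted. By the arrays alone, 1 of the 4 members had every ECD array above every Empty array, as 19.3% of all features did. CASP4 was not among the larger changes: 727 of the 927 features called higher with ECD changed by more, and their median log2 difference was 0.46. The median difference of all features was -0.01 with ECD. Leaving out 1 array at a time kept the difference between 0.34 and 0.41, with limma adjusted p-values of 0.029 to 0.072. The call ended without ECD replicate 2, Empty replicate 2 or Empty replicate 3. When arrays were scaled to a common median in place of quantile normalization, the median of all features with ECD moved to 0.11 and the CASP4 difference to 0.58 (limma adjusted p = 0.0039).

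The other probes of CASP4 gave no independent reading. ILMN_1774585 read 97.5 to 115.6 units and was above background on 1 ICD, 1 ECD and 2 Full arrays, against 2 Empty arrays. ILMN_1778059 read 94.7 to 117.3 units and was above background on 1 ECD array. CASP4 thus rests on a single probe. CASP5, the inflammatory caspase closest to CASP4, was below background on all 12 arrays. So were the CASP1 relatives CARD16 and CARD18.

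Between constructs, CASP4 was the only tested member called. ECD against ICD gave 0.52 (95% interval 0.33 to 0.71, limma adjusted p = 0.0046), with every ECD array above every ICD array. That was 1 of 4 members, where 1.71% of all features were called and 10.8% had their arrays apart in this direction, and 141 of the 170 features called higher there changed by more. Full against ECD gave -0.30 (-0.49 to -0.11, limma adjusted p = 0.03), with every Full array below every ECD array. That was also 1 of 4 members, but 18.3% of all features were called in this comparison and 17.6% had all Full arrays below all ECD arrays, and 1506 of the 1563 called lower changed by more. This last call was lost in 5 of the 6 fits that left out 1 array of these groups, with limma adjusted p-values of 0.042 to 0.11; it stayed only without Full replicate 2. Full against ICD gave 0.22 (0.03 to 0.41, limma adjusted p = 0.14), with all Full arrays above all ICD arrays, and 0 of 4 members were called by limma, against 5.00% of all features. Both CASP4 and XAF1 had every Full array above every ICD array, as 11.9% of all features did. Both also had an unadjusted limma p under 0.05 there, for which no share of all features was counted.

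**Figure D3:**
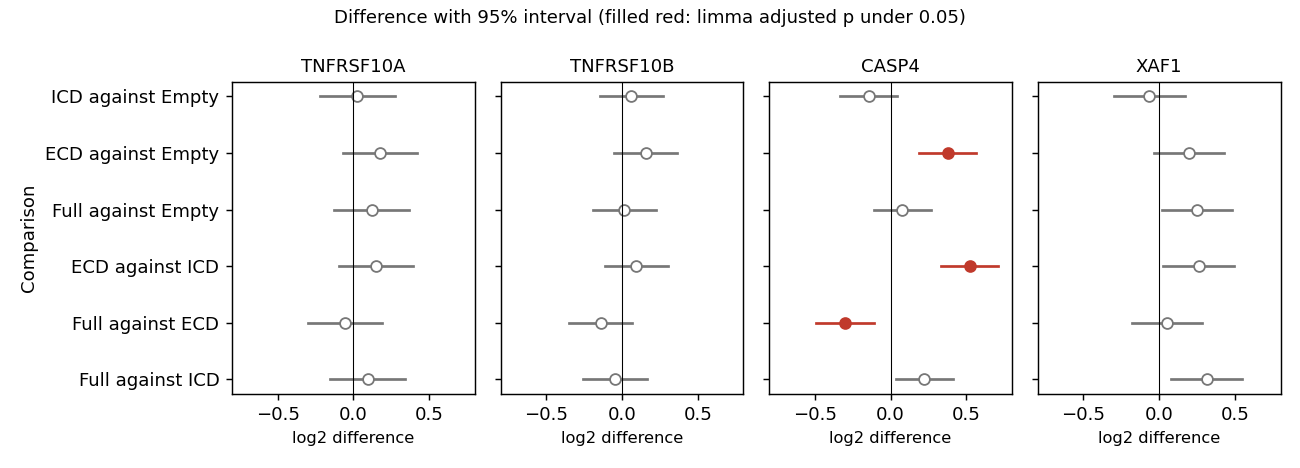
Log2 difference of TNFRSF10A, TNFRSF10B, CASP4 and XAF1 (panels) in the 6 comparisons (rows), group named first minus group named second; circles give the estimate, lines the 95% interval, and filled red a limma adjusted p under 0.05. The 3 filled circles are all in the CASP4 panel, at 0.38 for ECD against Empty, 0.52 for ECD against ICD and -0.30 for Full against ECD.

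XAF1, the XIAP antagonist, had both of its probes above background on all 12 arrays. The brighter, ILMN_1742618, stood for the gene, at 6.49, 6.33 and 6.34 with ICD, 6.67, 6.48 and 6.79 with ECD and 6.72, 6.54 and 6.84 with Full, against 6.51, 6.49 and 6.36 with Empty. Every Full array was above every Empty array, as for 10.2% of all features, while ECD and ICD overlapped with Empty. The difference from Empty was 0.25 with Full (95% interval 0.02 to 0.48, unadjusted p = 0.037, limma adjusted p = 0.31), and so did not pass. It was 0.20 with ECD (-0.04 to 0.43, limma adjusted p = 0.26) and -0.06 with ICD (-0.30 to 0.17, limma adjusted p = 0.77). Full was also above ICD on every array, by 0.31 (limma adjusted p = 0.098). That comparison passed only without Full replicate 2, at 0.40 (limma adjusted p = 0.04).

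The probe ILMN_2370573 of XAF1 spread more widely. It read 5.50, 5.66 and 5.76 with ICD, 5.85, 5.13 and 5.72 with ECD and 5.61, 5.51 and 5.68 with Full, against 5.17, 5.18 and 5.93 with Empty. Its difference from Empty was 0.21 with ICD, 0.14 with ECD and 0.17 with Full, and the 95% interval with ECD ran from -0.28 to 0.56. The probes of XAF1 thus differed in sign with ICD, and neither passed the test there. With median scaling, XAF1 and TNFRSF10B were called with ECD as well, at 0.37 (limma adjusted p = 0.034) and 0.35 (limma adjusted p = 0.042). Median scaling therefore gave 3 of 4 members higher with ECD in place of 1, while it called 2132 of all 15338 features higher and 166 lower.

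Interferons can induce several of these genes, and 28 interferon-stimulated genes that are no members could be tested on the same arrays. Of them 18 rose with ICD, 28 with ECD and 25 with Full, and 0 fell in any of these comparisons. Of all features, 3.33%, 6.04% and 0.808% were called higher in that order. A gene could enter through 1 group where it was high, so these counts follow in part from the detection filter. Of the 28 genes, 9 were below background on every Empty array. With only probes detected on all 12 arrays, 15 genes of the list rose with ECD and 15 with Full. IFIT2, an antiviral RNA-binding protein, rose 21.7-fold with ICD, 62.1-fold with ECD and 25.3-fold with Full. The median log2 difference of the list was 0.81 with ICD, 2.87 with ECD and 1.51 with Full, or 0.85, 2.79 and 1.42 with genes below background in a group set at their bound. The median over all features was 0.01, -0.01 and 0.01. The same list was higher with ECD than with ICD for 28 genes and lower with Full than with ECD for 28. Of all features, 1.11% were called higher in the first of these comparisons and 10.2% lower in the second. CASP4 was highest with ECD as well, but its change of 1.30-fold was far smaller than that of IFIT2. TNFSF10 stayed below background in every group. Of the 34 list genes on the array, MX2, CMPK2, EPSTI1 and TRIM22 were likewise above background on 0 arrays. RSAD2 and RTP4, above it on 4 and 1, could not be tested either.

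The promoters of 3 of these genes are shown because these genes, all known to respond to interferons, read differently beside this list: CASP4 differed with ECD, XAF1 did not pass, and TNFSF10 was below background. The letters are RefSeq sequence of GRCh38.p14, from 230 bases before the annotated start of transcription to its first 5 bases, on the gene's own strand. Capitals mark matches, on either strand, to the core of the interferon-stimulated response element (GAAA, any 2 bases, GAAA), or to GAANNGAA, a shorter interferon regulatory factor core with closer spacing; no match overlapped another here.
TNFSF10, chr3:172523426-172523660, minus strand: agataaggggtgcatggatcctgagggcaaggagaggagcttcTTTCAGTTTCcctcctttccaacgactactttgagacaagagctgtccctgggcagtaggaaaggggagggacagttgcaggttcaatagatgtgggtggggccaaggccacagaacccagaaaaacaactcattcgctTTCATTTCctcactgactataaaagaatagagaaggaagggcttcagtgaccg
CASP4, chr11:104968570-104968804, minus strand: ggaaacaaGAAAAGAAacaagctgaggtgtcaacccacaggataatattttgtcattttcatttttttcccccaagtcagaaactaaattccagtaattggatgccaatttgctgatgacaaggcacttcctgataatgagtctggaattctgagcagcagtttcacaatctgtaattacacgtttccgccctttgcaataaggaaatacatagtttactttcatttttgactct
XAF1, chr17:6755816-6756050, plus strand: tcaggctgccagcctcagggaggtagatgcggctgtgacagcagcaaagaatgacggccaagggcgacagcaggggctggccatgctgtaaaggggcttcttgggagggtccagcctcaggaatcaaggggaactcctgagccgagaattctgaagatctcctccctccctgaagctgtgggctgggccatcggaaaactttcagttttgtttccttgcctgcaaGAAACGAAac

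Among the promoters shown, the longer motif was found in that of TNFSF10 and in neither of the others. The shorter was found in all 3, in CASP4 far before the start of transcription and in XAF1 across it. Of 35116 promoters of 300 bases in the table, 3.57% hold the longer motif and 19.0% the shorter. XAF1 has 2 annotated starts, and the other window holds none of these motifs. TNFRSF10A and TNFRSF10B were left out of the search of members, with every promoter of their chromosome, whereas the shares above include it. Of the other members, 5 had a promoter in the table. Of those not shown, CASP8 held the longer motif at 1 of its 3 starts. FAS, also with 3 starts, held the shorter in some windows. A match is a description of the letters and not a site.

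Against Empty, 6 other genes of the pathway passed the test, all with ECD. The pathway was followed in 5 lists of genes that are no members: death ligands and receptors, adaptors of the signalling complex, other caspases and the mitochondrial arm, inhibitors of apoptosis and their antagonists, and inflammasome and pyroptosis genes. They name 74 genes, of which 66 have a probe and 40 could be tested. With ICD limma called 0 of the 40 (8 at an unadjusted p under 0.05). With ECD 3 rose and 3 fell, and with Full limma called 0 (4 at an unadjusted p under 0.05). The share of all features at that unadjusted threshold was not counted, so the 8 and the 4 have no background beside them. The 6 of 40 with ECD stand beside 11.4% of all features called there, a share near the background, so the count is no result about the pathway. Their median log2 difference was 0.02, -0.03 and -0.05 in that order, beside 0.01, -0.01 and 0.01 over all features.

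Of the death ligands and receptors, 6 of 14 could be tested, and limma called 0 in any comparison with Empty. At an unadjusted p under 0.05 limma passed 1, 2 and 1 with ICD, ECD and Full, again without a share of all features. FASLG, the FAS ligand, was below background on all 12 arrays, and TNFRSF10C, a decoy receptor of TRAIL, was above it on 4. TNFRSF10D, the other decoy, differed from Empty by -0.02 with ICD, -0.32 with ECD and -0.27 with Full, and its lowest limma adjusted p was 0.22.

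Of 8 adaptors and signalling proteins tested, 2 rose with ECD, where 6.04% of all features were called higher. MLKL, the executioner of necroptosis, rose 1.62-fold (limma adjusted p = 0.00012). TNFAIP3, the ubiquitin-editing enzyme A20 that dampens NF-κB signalling, rose 1.92-fold (limma adjusted p = 0.0012) and was above background on 1 of the 3 Empty arrays. Without background correction its log2 difference was 0.29, against 0.94 with it. Both are known to respond to cytokines. Neither was called with ICD or Full.

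The genes that fell with ECD were an executioner caspase, a pore-forming protein and an XIAP antagonist. Of all features, 5.37% were called lower there. CASP6 fell by 0.49 on the log2 scale (limma adjusted p = 0.0084) and BAX by 0.51 (limma adjusted p = 0.026), of 12 genes tested in their list. HTRA2, a mitochondrial protease that antagonizes XIAP, fell by 0.55 (limma adjusted p = 0.007), of 7 tested, and its other probe differed by -0.27. These calls ended with median scaling, where the differences of CASP6, BAX and HTRA2 were -0.30, -0.32 and -0.36 (limma adjusted p = 0.061, 0.15 and 0.06). The BAX call also ended without the detection filter (limma adjusted p = 0.051) and in each fit that left out 1 ECD array, Empty replicate 1 or Empty replicate 3 (limma adjusted p = 0.065 to 0.11). XIAP itself was above background on all 12 arrays but close to it, at 109.1 to 125.9 units. Its differences from Empty were -0.31 with ICD, -0.25 with ECD and -0.36 with Full (limma adjusted p = 0.22, 0.3 and 0.29), and none passed.

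Of 7 inflammasome and pyroptosis genes tested, 1 rose with ECD, where 6.04% of all features were called higher. IFI16, a DNA sensor, rose 1.49-fold (limma adjusted p = 0.011), a call that ended without ECD replicate 2 (limma adjusted p = 0.054). Without background correction its log2 difference was 0.24, against 0.58 with it. GSDMD, the substrate of CASP4, was above background on all 12 arrays, at up to 130.5 units, and was not called. PYCARD, the adaptor through which CASP1 is recruited, was above background on 1 array.

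**Figure D4:**
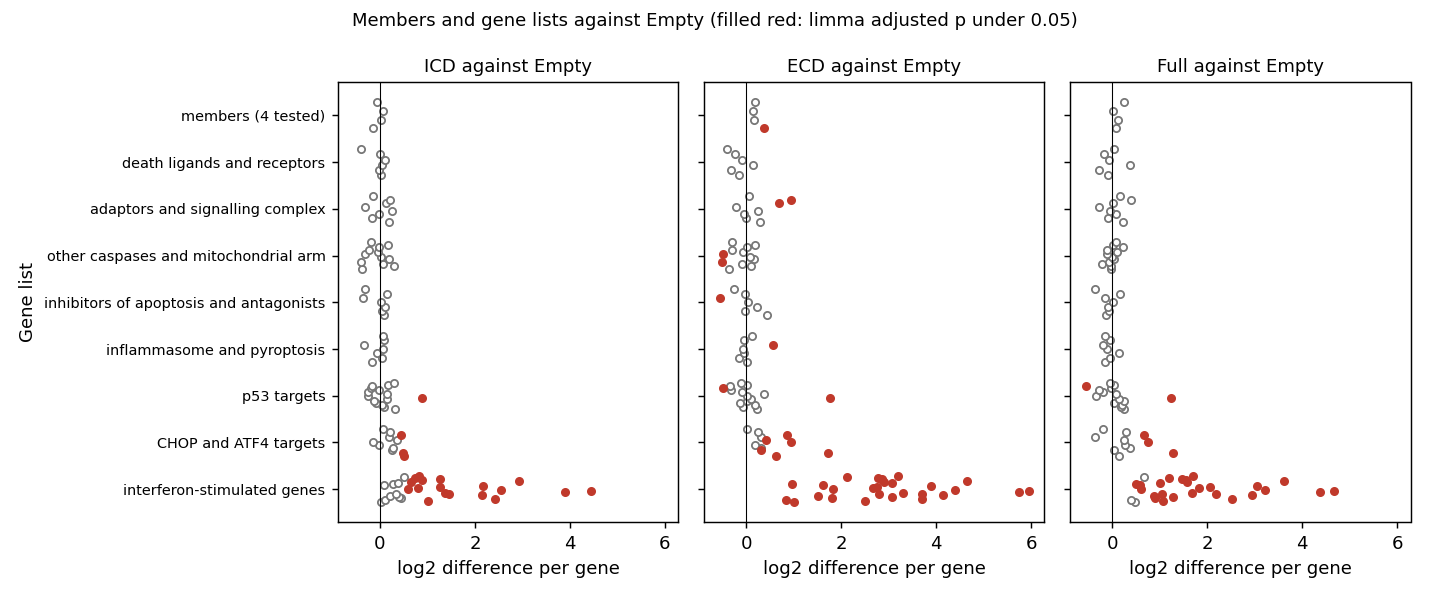
Log2 difference from Empty of each tested gene (circles) for ICD, ECD and Full (panels), for the 4 tested members and 8 lists of other genes (rows); filled red marks a limma adjusted p under 0.05. In the ECD panel 1 of the 4 members, CASP4 at 0.38, is filled, while all 28 interferon-stimulated genes are filled and reach beyond 5.

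TNFRSF10B and FAS are known targets of p53, and TNFRSF10B of CHOP, so lists of other targets were set beside them. Of 15 p53 targets tested, 1 rose and 0 fell with ICD, 1 rose and 1 fell with ECD, and 1 rose and 1 fell with Full. Of all features, 3.33%, 6.04% and 0.808% were called higher in that order, and 2.68%, 5.37% and 0.267% lower. The counts with ECD are thus near the background and no result about the list. The gene that rose was PMAIP1 each time, the BH3-only protein NOXA, by 1.86-fold with ICD, 3.41-fold with ECD and 2.37-fold with Full. CDKN1A and MDM2, which p53 is known to induce, differed by 0.04 and 0.15 with ICD, 0.19 and 0.10 with ECD and 0.21 and 0.14 with Full, and passed in none. MDM2 lay near background, at up to 123.2 units and above background on at most 10 arrays per probe. The genes that fell were TP53I3 with ECD, by 0.49 (limma adjusted p = 0.0076), and TP53INP1 with Full, by 0.55 (limma adjusted p = 0.028). The other probes of TP53I3 and TP53INP1 differed by -0.05 and -0.24. The TP53I3 call ended with median scaling (-0.30, limma adjusted p = 0.11) and with the mean of the gene's probes (-0.27, limma adjusted p = 0.12). The TP53INP1 call ended with the mean of its probes (limma adjusted p = 0.072), with only the 2 groups fitted (limma adjusted p = 0.16), and without Full replicate 1, Empty replicate 1 or Empty replicate 2 (limma adjusted p = 0.11, 0.11 and 0.081). The median log2 difference of the list was 0.04 with ICD, 0.02 with ECD and 0.04 with Full.

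Of 11 CHOP and ATF4 targets tested, 3 rose with ICD, 6 with ECD and 3 with Full, and 0 fell. Of all features, 3.33%, 6.04% and 0.808% were called higher in that order. ATF3, a stress-induced transcription factor, rose 1.40-fold with ICD, 3.32-fold with ECD and 2.43-fold with Full. PPP1R15A, the phosphatase subunit GADD34, rose 1.35-fold, 1.82-fold and 1.59-fold. DDIT3, which encodes CHOP itself, rose 1.93-fold with ECD and 1.70-fold with Full. ASNS, asparagine synthetase, rose 1.42-fold with ICD and 1.55-fold with ECD. Without background correction the log2 differences of ATF3 were 0.16 with ICD (limma adjusted p = 0.08), 0.73 with ECD and 0.49 with Full, against 0.48, 1.73 and 1.28 with it, and those of DDIT3 were 0.56 with ECD and 0.44 with Full. The DDIT3 call with Full ended with only the 2 groups fitted (limma adjusted p = 0.052), and the ASNS call with ICD ended there and without the detection filter (limma adjusted p = 0.05 and 0.082). The 3 calls with ICD became 1 without ICD replicate 1 and 0 without ICD replicate 2, Empty replicate 2 or Empty replicate 3. The median log2 difference of the list was 0.25 with ICD, 0.32 with ECD and 0.28 with Full. TNFRSF10B did not pass the test in any of these groups.

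The genes whose 4 group means were most like those of CASP4 were named by the root mean square difference between means centred on each gene, over 10911 other genes with a symbol. They were EFL1, a ribosome maturation GTPase, at 0.03, LPGAT1, a lysophospholipid acyltransferase, at 0.03, and GADD45A, a stress-induced gene, at 0.04. The means of GADD45A were 8.13 with ICD, 8.64 with ECD and 8.29 with Full, against 8.31 with Empty. With 4 groups, and so many genes compared, this likeness is a description only.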

How the data were processed

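Biotin-labelled, amplified RNA was put on 12 arrays, per the labels' protocols, and no source used here names the scanner software. The authors deposited a linear intensity per probe and array, from which background had not been taken off, as its values show. Beside each intensity the authors deposited a detection p-value. The log2 values that the authors deposited equal quantile-normalized log2 intensities within 5e-09, with no background correction, and served as an alternative. Sample titles gave the groups and replicate numbers. No date or chip position was used here, so batches were not tested.

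Probes were named from the platform annotation: 30113 have 1 symbol, 8 several and 17202 none, and 0 of the 20 member probes were renamed through the RefSeq gene table of GRCh38.p14. The neqc function of limma 3.58.1 (R 4.3.3) corrected and normalized the intensities (normexp from detection p-values, offset 16, quantile, log2), which shrinks the fold changes of dim probes. A probe entered when 1 or more groups had it above background (detection p under 0.05) on each of their 3 arrays, as 18728 probes were. The brightest entering probe stood for a symbol, which left 15338 features. One lmFit with eBayes over the 4 groups (8 residual and 6.5 prior degrees of freedom) gave 6 two-sided contrasts, adjusted by Benjamini-Hochberg over all features at 0.05. The number of arrays limits the precision. Array pairs held 0 identical columns. The steps were tested on simulated data. Promoters came from a RefSeq table and were searched by script. Python 3.11.15 with matplotlib 3.10.9 drew the figures.

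The members, the gene lists and the tests were chosen with earlier results of these data known. All members and all their probes are described. Of each list, up to 4 called genes per comparison with Empty with the smallest adjusted p were to be named, and for each member called against Empty the 3 genes of most like pattern. FASLG, TNFRSF10C, TNFRSF10D, XIAP, GSDMD, PYCARD, CASP5, CARD16, CARD18, CDKN1A and MDM2 were named for their known roles after the values were seen. Alternatives left out each array in turn, blocked on replicate number, weighted the arrays, fitted fewer groups or another variance model, and changed the scaling, the background step, its offset, the detection filter or the choice of probe.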

Additional observations from a re-analysis of the deposited data

How the results depend on the processing

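The number of tested members called was set by CASP4 alone, unless stated. For ECD against Empty it was 1 of 4, became 3 with median scaling, and lay between 0 and 1 with 1 array left out. For Full against ECD it was 1, became 2 with median scaling (CASP4, and also TNFRSF10B at -0.35, limma adjusted p = 0.031) and 0 with only these 2 groups fitted (CASP4 adjusted p = 0.071), and lay between 0 and 1 with 1 array left out. It was 0 for Full against ICD, and between 0 and 1 with 1 array left out, where the call was XAF1, without Full replicate 2. For ECD against ICD it stayed at 1 in all 12 alternatives and in all 6 fits with an array left out. For ICD and for Full against Empty it stayed at 0 throughout. CASP4 with ECD against Empty lay between 0.27 and 0.58 over the 12 alternatives, with limma adjusted p-values of 0.0029 to 0.025.

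Signs turned only among differences that were not called. The mean of all probes gave -0.013 for TNFRSF10B and 0.073 for XAF1 with ICD against Empty, and -0.096 for TNFRSF10B with Full against Empty. Median scaling gave -0.00401 for TNFRSF10B with Full against Empty and -0.16 for XAF1 with Full against ECD. Array weights gave 0.035 for TNFRSF10B with Full against ICD. With 1 array left out, TNFRSF10A ranged from -0.049 to 0.10 with ICD against Empty and from -0.15 to 0.062 with Full against ECD, TNFRSF10B from -0.053 to 0.060 with Full against Empty, and XAF1 from -0.033 to 0.14 with Full against ECD. The cause was not tested.

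Counts over all features moved more. The calls with ECD against Empty, 927 higher and 823 lower, became 2132 and 166 with median scaling, and those with Full against ECD, 1239 higher and 1563 lower, became 258 and 2898. Over the alternatives the total for ICD against Empty lay between 491 and 1617 (922 as reported), for ECD against Empty between 1287 and 3257 (1750), for Full against Empty between 65 and 695 (165), for Full against ECD between 1593 and 4328 (2802) and for Full against ICD between 22 and 1577 (767). With 1 array left out the totals were 286 to 525, 595 to 1011, 82 to 462, 1532 to 3731 and 188 to 1624 in that order, and 139 to 194 for ECD against ICD (262). Same-numbered arrays of different groups deviated together at r = -0.09 to 0.12 over 18 pairs. Correlations over all features cannot show whether these arrays shared a day or a chip, and that was not tested. A replicate block gave 829, 1704 and 140 calls for ICD, ECD and Full against Empty, and CASP4 kept its calls (adjusted p = 0.025 against Empty, 0.012 for ECD against ICD and 0.042 for Full against ECD).

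Of the pathway lists, the other caspases and mitochondrial genes gave 0 lower calls with ICD, and up to 3 with the mean of all probes; with ECD their 2 lower calls became 0 with median scaling and 5 with only the 2 groups fitted. Of all 15338 features, 468 were called lower with ICD by the mean of all probes. With ECD, 166 were called lower with median scaling and 1305 with only the 2 groups fitted. Of the p53 targets 1 was higher with ECD, and 4 with median scaling, where 2132 of all 15338 features were called higher. With only probes detected on all 12 arrays, 15 interferon-stimulated genes were higher with ECD and 15 with Full, since fewer genes were tested.

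For the 5 genes below background, and for TNFRSF10B's dimmer probe, the signal over background is the limit.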

Other observations

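Further genes were looked up after the marker values had been seen. ALDH3A1, a dehydrogenase known for high levels in A549, was above background in 1 of 12 values. AKR1C2, known for the same, was above background in 13 of 72 values from 6 probes, with a highest intensity of 180.4. AKR1C3 was above background in 12 of 12 values, at 114.1 to 134.8 units. NQO1 and TXNRD1, looked up with them, were each above background in 24 of 24 values and reached 1542.6 and 583 units. The cancer-testis antigen genes GAGE4 and GAGE12G were among the brightest on the arrays, at 13161.8 to 15806.3 and 12107.3 to 15620.8 units, ranks 19 and 26 of the 47323 probes. Many GAGE copies are nearly identical, so a bright probe cannot be assigned to 1 of them. The probe of GAGE10 read lower, at 256 to 369.5 units. Whether the identity of the cells bears on the values of the death receptor genes was not tested.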
